A study of Mus musculus with 8 samples.

Results

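Antiviral interferon-stimulated genes are genes that cells switch on after an interferon has bound its receptor, and whose products sense viral nucleic acid, degrade or modify it, or stop its translation. A list of 45 such genes was taken by gene symbol, and 42 of them had a row among the 19330 genes of the deposited table. Oasl1, Rsad2 and Ifi44 had no row and were not analysed here. Expression was measured by RNA-seq in regulatory T cells (Tregs) made in vitro from naive mouse CD4+ T cells, with spleen as tissue and B6 as genotype. The 4 oxPAPC libraries came from cells polarized for 3 days with oxPAPC, a mixture of oxidized forms of the phospholipid PAPC, and the 4 Control libraries from cells polarized without it. No genetic change, antibody or cytokine dose is given in the labels, all 8 libraries are of primary cells of 1 strain, and nothing says whether replicates come from separate mice or wells. The p-values therefore cover the spread between these libraries, which may be technical. Library totals were 14017583 to 21619731 counts.

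Type I interferons signal through the kinases JAK1 and TYK2 to transcription factors, among them STAT2 and IRF9, that bind the interferon-stimulated response element (ISRE) in promoters. Interferon gamma signals through JAK1 and JAK2 to factors that bind the gamma-activated sequence (GAS), and many antiviral genes respond to both kinds of interferon. In T cells these genes are part of the response to infection and inflammation.

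Exposure to oxPAPC went with higher RNA of most antiviral interferon-stimulated genes, and with lower RNA of none that passed the test. By edgeR's quasi-likelihood test with adjustment over all 16434 genes tested, 33 of the 41 members that passed the filter on low counts rose, 0 fell and 8 did not pass. At an unadjusted p under 0.05 in either direction there were 38 members, against 27.4% of all genes tested. The share that rose among all genes tested was 6.69%. The median log2 fold change was 1.49 over the members and -0.01 over all genes tested, and it was positive in 40 of 41 members and in 8009 of the 16434 genes. At least 2-fold higher were 24 members, against 2.5% of all genes tested, and at least 4-fold higher were 11, against 0.499%. All 9 tested members with a Control mean under 1 CPM (counts scaled to library size) rose, against 153 of 1795 such genes tested. Of these members, Oas1a, Oasl2, Mx1 and Rtp4 had 0 to 6 counts per Control library and passed the filter through the oxPAPC libraries only. Each is among the members at least 4-fold higher. Once tested, Oas1a, Oasl2, Mx1 and Rtp4 could hardly come out other than higher. The rest with a Control mean under 1 CPM, Isg15, Xaf1, Ifit1, Ifit3b and Ddx60, had 2 to 30 counts per Control library. They too passed the filter only with the help of oxPAPC libraries. The comparisons with all genes tested are therefore partly set by the filter, most of all the one for a Control mean under 1 CPM. In 32 members every oxPAPC library lay above every Control library, which held for 9.5% of all genes tested. In the authors' deposited table, 37 of the 42 members with a row were called, all higher, against 7.88% of the genes with a p-value there. Every row there reaches 5 counts in 2 or more libraries. Oas1a, Oas2, Oasl2, Mx1 and Rtp4, all called, met this only with oxPAPC libraries. These are bulk libraries, so more cells expressing a gene and more RNA per expressing cell cannot be told apart.

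**Figure D1:**
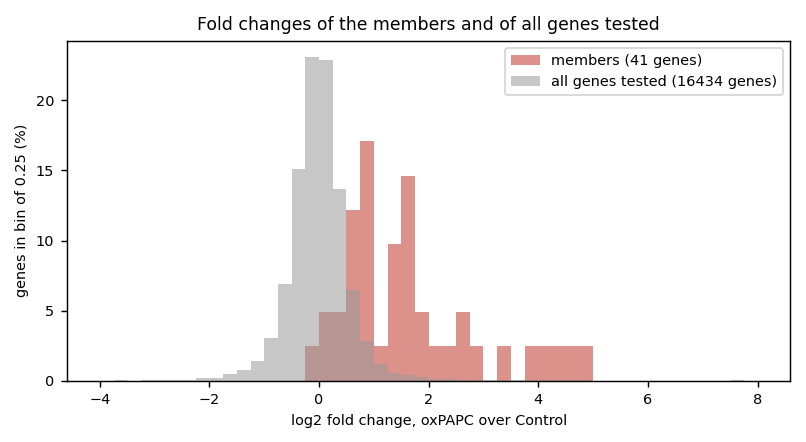
Log2 fold change, oxPAPC over Control, on the horizontal axis and percent of genes per bin on the vertical axis, for the 41 tested members in red and all 16434 genes tested in grey. The grey distribution is centred near -0.01, and the members reach from -0.14 to 4.78 with a median of 1.49.

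The promoters of these genes are shown first because ISRE and GAS are the elements through which interferon receptors act. Windows of 300 bases, 250 before and 50 after each RefSeq start site (GRCm38.p6), were found by symbol for 33 of the 45 listed genes. Usp18, Dhx58, Zbp1, Oas2, Mx1, Rtp4, Parp9, Parp10, Parp14, Ifi27, Ifi27l2a and Tor3a had no entry. The ISRE core was searched as GAAANNGAAA on both strands and GAS as TTCNNNGAA, which reads the same on both strands, where N is any base. A gene counted once if any of its windows held a match, and 5 members had more than 1 window. The ISRE core was found in 14 of 33 listed genes (42.4%), against 3.99% of all 27025 genes with a window. GAS was found in 8 of 33 (24.2%), against 9.55% of all genes. Of the 23 members with a window that rose, 13 held the ISRE core and 5 held GAS. Of the 7 with a window that did not pass, 0 held the ISRE core and 3 held GAS. Among the 10 that rose without an ISRE core in the window were Oasl2, Xaf1 and Lgals3bp. A match is a string of letters and not a measured binding site.

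The following segments hold ISRE cores before the start site in 6 members that rose, followed by GAS in 2 that did not pass, each read 5′ to 3′ on the strand of its gene with the match in capitals.
Isg15: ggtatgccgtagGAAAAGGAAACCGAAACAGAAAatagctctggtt
Ifit1: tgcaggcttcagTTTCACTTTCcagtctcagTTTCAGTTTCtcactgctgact
Ifit3: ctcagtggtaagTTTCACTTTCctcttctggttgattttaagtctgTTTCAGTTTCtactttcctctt
Oas1a: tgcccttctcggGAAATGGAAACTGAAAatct
Oas3: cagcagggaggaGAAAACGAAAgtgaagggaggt
Bst2: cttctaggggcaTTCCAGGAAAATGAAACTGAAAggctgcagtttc
Ifit2: catgggagcTTCCTGGAAgaatggataaaa
Samhd1: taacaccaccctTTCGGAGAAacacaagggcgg
The Isg15 segment (minus strand, chr4:156200863-156200908) holds 3 overlapping ISRE cores. Those of Ifit1 (plus strand, chr19:34640773-34640825) and Ifit3 (plus strand, chr19:34583361-34583428) hold 2 each in the reverse orientation. The Ifit3b promoter has the same letters as the Ifit3 segment at chr19:34607757-34607824. Oas1a (minus strand, chr5:120907526-120907557) has 2 overlapping cores, and a GAS further upstream at -98 to -90 that is not shown, and Oas3 (minus strand, chr5:120777713-120777746) has 1. In Bst2 (minus strand, chr8:71537575-71537620) a GAS overlaps the first of 2 ISRE cores. The segments of Ifit2 (plus strand, chr19:34550444-34550473) and Samhd1 (minus strand, chr2:157135311-157135343) hold GAS only.

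**Figure D2:**
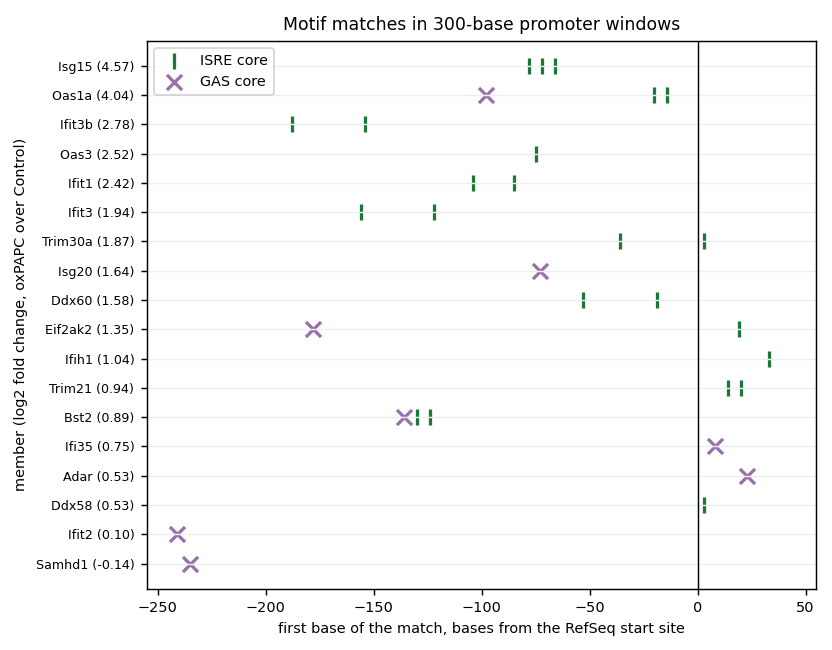
Position of each match relative to the RefSeq start site, in bases, with members ordered from the highest to the lowest log2 fold change, given in brackets. Green bars are ISRE cores and purple crosses GAS. Members at the top with ISRE cores before the start site include Isg15, with the first match at -78, and Ifit2 and Samhd1 at the bottom have GAS only, at -241 and -235. Isg20 and Ifi35, which rose, also have GAS only. Members with no match, such as Oasl2 and Xaf1, or no window, such as Rtp4 and Mx1, are not shown.

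The ISG15 pathway attaches a small ubiquitin-like protein to other proteins, and 3 of its 4 members rose. Values below are CPM, the counts of a gene scaled to library size with TMM, listed for replicates 1 to 4 of each group. Isg15, which encodes the modifier itself on chromosome 4 (156199455 to 156200796), had 8.43, 7.87, 10.3 and 11.2 CPM in the oxPAPC libraries, against 0.732, 0.151, 0.183 and 0.506 CPM in the Control libraries. All 4 oxPAPC libraries were above all Control libraries, where 28 counts in all were found. The log2 fold change of Isg15 was 4.57 ± 0.36 (SE), with an edgeR adjusted p of 5.34e-06. Usp18, the protease that removes ISG15 and also restrains the type I interferon receptor, had 18.4, 16.3, 19.2 and 15.5 CPM in the oxPAPC libraries, against 4.52, 5.51, 5.94 and 5.70 CPM in the Control libraries. The groups did not overlap, and the log2 fold change was 1.68 ± 0.16 (SE, edgeR adjusted p = 2.73e-05). Herc6, the ligase that attaches ISG15 in mice, had 9.11, 8.79, 7.06 and 8.93 CPM in the oxPAPC libraries, against 5.25, 3.85, 8.09 and 5.38 CPM in the Control libraries. Control replicate 3 lay above oxPAPC replicate 3, and Herc6 missed the threshold, with a log2 fold change of 0.57 and an edgeR adjusted p of 0.109. With limma-voom and quality weights it passed (0.0193), as it did in edgeR once Control replicate 3 was left out (0.0205). Trim25, a ligase that also modifies the RNA sensor RIG-I, had 82.2, 81.8, 117 and 107 CPM in the oxPAPC libraries, against 54.4, 73.4, 62.0 and 75.03 CPM in the Control libraries. Its log2 fold change of 0.55 ± 0.16 (SE) passed, with an edgeR adjusted p of 0.0404. That call did not hold when any one of oxPAPC replicates 3 and 4 or Control replicates 1, 2 and 3 was left out, where the adjusted p was 0.0619 to 0.125. Outside the members, Ube2l6 and Uba7, which encode the conjugating and activating enzymes of ISG15, rose with log2 fold changes of 2.12 and 1.08. They were the 2 that rose of the 4 ISG15 or HERC enzymes tested outside the members, and 0 fell, with Herc1 and Herc2 at -0.17 and 0.03.

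All 5 sensors of foreign RNA or DNA rose. Zbp1, a sensor of Z-form nucleic acid that can trigger cell death, had 24.1, 29.2, 34.0 and 34.7 CPM in the oxPAPC libraries, against 9.98, 9.51, 12.2 and 11.6 CPM in the Control libraries. The groups were well apart (log2 fold change 1.49 ± 0.16, SE, edgeR adjusted p = 5.83e-05). Ddx60, a helicase linked to RNA sensing, was low, with 2.91, 2.51, 1.32 and 2.59 CPM in the oxPAPC libraries, against 0.931, 0.905, 1.01 and 0.276 CPM in the Control libraries. It rose by 1.58 ± 0.39 (SE, edgeR adjusted p = 0.0157), without overlap. Ifih1, which encodes the long double-stranded RNA sensor MDA5, averaged 12.8 ± 2.12 CPM in the oxPAPC libraries and 6.203 ± 1.303 CPM in the Control libraries (SD, n = 4 each), a log2 fold change of 1.04. Dhx58, which encodes LGP2, a regulator of the other RNA helicase sensors, had 6.27, 9.92, 10.7 and 9.89 CPM in the oxPAPC libraries, against 3.66, 4.53, 6.49 and 5.01 CPM in the Control libraries. It was the one called member whose groups overlapped, by oxPAPC replicate 1 and Control replicate 3 (log2 fold change 0.90, edgeR adjusted p = 0.0177), and its call was lost without Control replicate 1 (0.0575) or 2 (0.0517). Ddx58, which encodes RIG-I, had 14.9, 16.3, 20.6 and 18.2 CPM in the oxPAPC libraries, against 10.04, 11.5, 14.9 and 12.1 CPM in the Control libraries. The lowest oxPAPC and the highest Control library were level to 6 digits, and Ddx58 is counted above as without overlap only by a smaller difference. The call of Ddx58 (log2 fold change 0.53 ± 0.16, SE, edgeR adjusted p = 0.0486) was lost with scaling by library size (0.0792), and without any single library other than Control replicate 3 (0.0520 to 0.137). Among 12 tested upstream sensors and adaptors outside the members 2 rose and 0 fell. They were Tmem173, which encodes STING (log2 fold change 0.93), and Cgas, the DNA sensor that signals to it (0.89). Mavs, the adaptor of RIG-I and MDA5, had -0.24 (edgeR adjusted p = 0.481).

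The OAS genes encode enzymes that make 2′-5′ oligoadenylate on binding double-stranded RNA, and relatives without that activity, and held some of the highest fold changes. Oas3 was the most abundant, with 19.5, 15.7, 31.6 and 23.0 CPM in the oxPAPC libraries, against 3.33, 4.53, 2.97 and 4.88 CPM in the Control libraries. The log2 fold change was 2.52 ± 0.24 (SE), at an edgeR adjusted p of 2.35e-05, with all oxPAPC libraries above all Control libraries. Oasl2, an OAS-like protein with a ubiquitin-like part, had 2.54, 2.05, 2.12 and 1.57 CPM in the oxPAPC libraries, against 0, 0, 0.183 and 0.0460 CPM in the Control libraries. The 4 oxPAPC libraries held 144 counts together, against 5 in the Control libraries. Its log2 fold change was 4.78 ± 0.55 (SE), with an edgeR adjusted p of 0.000108. Leaving out single libraries gave 4.47 to 6.25, the highest without Control replicate 3. Oas1a, one of several mouse Oas1 copies, had 1.42, 1.19, 2.25 and 1.83 CPM in the oxPAPC libraries, against 0, 0.0755, 0 and 0.276 CPM in the Control libraries, with 7 counts in the Control libraries together. This gave a log2 fold change of 4.04 ± 0.62 (SE), with an edgeR adjusted p of 0.000787. Leaving out single libraries gave 3.57 to 5.96, the highest without Control replicate 4. Of the 50-base words in Oas1a transcripts 57.6% also occur in Oas1g, so single values of this family are uncertain. Oas2 was removed by the filter on low counts, with 34 counts in the oxPAPC and 5 in the Control libraries, and every oxPAPC library lay above every Control library. With no filter its log2 fold change was 2.68, at an edgeR adjusted p of 0.0223. Every row of the deposited table reaches 5 counts in 2 or more libraries. Oas2, with 0 to 3 counts per Control library, met this through the oxPAPC libraries only. Its lack of overlap and this p were therefore largely set in advance and are no separate support for a rise. A count of 0 in a Control library allows up to 3 counts, or 0.139 to 0.183 CPM before TMM scaling, for counting error only. Outside the members, Oas1b rose by 0.91, and Oas1c and Pde12, a phosphodiesterase that degrades 2′-5′ oligoadenylate, had -0.09 and 0.26 and did not pass.

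Ifit proteins bind viral RNA and the translation initiation machinery, and their genes form a cluster on chromosome 19. With the translation block kinase Eif2ak2, 4 of 5 members rose. Ifit3b had 2.54, 4.56, 6.18 and 5.17 CPM in the oxPAPC libraries, against 0.333, 0.755, 0.868 and 0.690 CPM in the Control libraries (log2 fold change 2.78 ± 0.34, SE, edgeR adjusted p = 0.000199). Ifit1, which recognizes RNA caps lacking host methylation, had 3.21, 2.45, 5.65 and 3.195 CPM in the oxPAPC libraries, against 0.865, 1.06, 0.685 and 0.230 CPM in the Control libraries (log2 fold change 2.42 ± 0.40, SE, edgeR adjusted p = 0.00149). Neither gene's groups overlapped. Ifit3 averaged 6.44 ± 1.12 CPM in the oxPAPC libraries and 1.68 ± 0.0993 CPM in the Control libraries (SD, n = 4 each), a log2 fold change of 1.94. Ifit3 and Ifit3b share 51.2% and 44.5% of their 50-base words with each other, beside the identical promoter segment shown above, so their counts cannot be fully told apart. Ifit2, an RNA-binding member of the family, was the one that did not pass. It had 17.9, 15.7, 21.3 and 22.1 CPM in the oxPAPC libraries, against 17.5, 14.6, 21.6 and 18.1 CPM in the Control libraries. The groups overlapped throughout (log2 fold change 0.10 ± 0.16, SE, edgeR adjusted p = 0.745). Eif2ak2, which encodes PKR, the kinase that halts translation on binding double-stranded RNA, averaged 40.4 ± 7.61 CPM in the oxPAPC libraries and 15.8 ± 3.19 CPM in the Control libraries (SD, n = 4 each), a log2 fold change of 1.35.

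Among members less than 10000 bases apart, 3 of 4 pairs were tested, each by the log2 ratio of both genes within a library. The pair of Oas2 and Oas3, 3244 bases apart, was left out because Oas2 did not pass the filter on low counts. Ifit2 ends 7111 bases before Ifit3, and the log2 ratio of Ifit2 over Ifit3 was 1.58 ± 0.128 in the oxPAPC libraries and 3.41 ± 0.282 in the Control libraries (SD, n = 4 each). The groups did not overlap, and the two-sided exact permutation p of 0.0286 is the smallest that 4 against 4 allows, or 0.0857 adjusted over the 3 pairs. The pairs were chosen after values were seen, and the same library values had already shown a rise of Ifit3 and none of Ifit2. The p is therefore no separate support for a difference between them. The ratio of Parp9 over Dtx3l was -0.438 ± 0.186 and -0.931 ± 0.493 in the oxPAPC and Control libraries (SD, n = 4 each, exact permutation p = 0.0857, adjusted 0.0857). For Ifi27 over Ifi27l2a it was -3.29 ± 0.498 and -2.67 ± 0.313 (SD, n = 4 each, exact permutation p = 0.0571, adjusted 0.0857).

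Of the 4 tested enzymes that act on nucleotides and RNA 2 rose. Cmpk2, a mitochondrial nucleotide kinase, had 6.79, 3.04, 4.46 and 4.06 CPM in the oxPAPC libraries, against 1.33, 0.830, 0.594 and 1.33 CPM in the Control libraries (log2 fold change 2.16 ± 0.33, SE, edgeR adjusted p = 0.000835). Isg20, an exonuclease, had 3.73, 4.03, 5.38 and 5.38 CPM in the oxPAPC libraries, against 0.798, 1.66, 2.33 and 1.10 CPM in the Control libraries (log2 fold change 1.64 ± 0.31, SE, edgeR adjusted p = 0.0035). Both were without overlap between groups. Adar, which edits adenosine to inosine in double-stranded RNA, had 63.4, 70.3, 94.4 and 87.5 CPM in the oxPAPC libraries, against 46.5, 48.8, 55.6 and 67.7 CPM in the Control libraries. It narrowly missed the threshold (log2 fold change 0.53 ± 0.17, SE, edgeR adjusted p = 0.0516), passed with RLE scaling (0.0486), DESeq2 (0.0307) and a filter at 5 CPM (0.0323), and shares 1365 exon bases with Chrnb2 on the other strand. It also passed without oxPAPC replicate 1 (0.0434) or Control replicate 4 (0.0325). Samhd1, which depletes the nucleotides that reverse transcription needs, had 116, 136, 194 and 174 CPM in the oxPAPC libraries, against 138, 153, 201 and 193 CPM in the Control libraries. It was the only tested member with a negative log2 fold change, -0.14 ± 0.19 (SE, edgeR adjusted p = 0.685).

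Restriction factors block entry, replication or release of viruses, and 4 of the 5 tested rose. Rtp4, which binds viral RNA and replicases, was nearly silent in the Control libraries, with 2.24, 2.05, 2.56 and 2.99 CPM in the oxPAPC libraries, against 0.0665, 0, 0.183 and 0.184 CPM in the Control libraries. The counts were 178 and 9, and the log2 fold change 4.26 ± 0.45 (SE, edgeR adjusted p = 5.83e-05). Mx1, an antiviral GTPase whose B6 allele carries a deletion that disrupts the protein, had 1.12, 1.32, 0.838 and 1.32 CPM in the oxPAPC libraries, against 0, 0.151, 0.274 and 0 CPM in the Control libraries. It rose by 3.29 ± 0.62 (SE, edgeR adjusted p = 0.00332) on 80 and 8 counts, and by 2.82 to 4.59 with single libraries left out, the most without Control replicate 3. Ifi47, an immunity-related GTPase, and Bst2, the tether that holds budding virions at the cell surface, were far more abundant. Ifi47 averaged 109 ± 10.1 CPM in the oxPAPC libraries and 38.6 ± 5.37 CPM in the Control libraries, and Bst2 averaged 70.9 ± 6.52 and 38.3 ± 6.51 CPM (SD, n = 4 each). Their log2 fold changes were 1.497 and 0.89. Samd9l, a translation inhibitor that restricts poxviruses, had 12.1, 14.7, 11.9 and 18.7 CPM in the oxPAPC libraries, against 9.38, 4.98, 12.7 and 5.38 CPM in the Control libraries. Control replicate 3 lay above 2 oxPAPC libraries, and Samd9l missed the threshold (log2 fold change 0.81 ± 0.27, SE, edgeR adjusted p = 0.0632). It passed without Control replicate 3 (0.00853), with DESeq2 (0.0224) and with limma-voom (0.0466).

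Of the 4 TRIM and nuclear body members 3 rose. Trim30a, a regulator of inflammatory signalling, had 66.5, 65.4, 80.8 and 85.7 CPM in the oxPAPC libraries, against 17.8, 18.6, 25.6 and 19.5 CPM in the Control libraries (log2 fold change 1.87 ± 0.16, SE, edgeR adjusted p = 1.15e-05). Pml, which organizes PML nuclear bodies, had 118, 129, 158 and 142 CPM in the oxPAPC libraries, against 62.4, 71.8, 64.5 and 81.7 CPM in the Control libraries (log2 fold change 0.96 ± 0.15, SE, edgeR adjusted p = 0.000885). Neither overlapped. Trim21, a cytosolic antibody receptor, averaged 20.4 ± 1.91 CPM in the oxPAPC libraries and 10.6 ± 1.58 CPM in the Control libraries (SD, n = 4 each), a log2 fold change of 0.94. Sp100, the other nuclear body protein, had 102, 111, 124 and 142 CPM in the oxPAPC libraries, against 78.8, 70.2, 115 and 80.9 CPM in the Control libraries. Control replicate 3 lay above 2 oxPAPC libraries. Sp100 missed the threshold at a log2 fold change of 0.47 ± 0.18 (SE) and an edgeR adjusted p of 0.094, and passed once Control replicate 3 was left out (0.0172).

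PARP family members transfer ADP-ribose to proteins, and DTX3L is the ubiquitin ligase partner of PARP9. Of these 5 members 4 rose. Parp12, which acts on RNA viruses, had 5.08, 5.22, 3.71 and 2.59 CPM in the oxPAPC libraries, against 1.46, 1.81, 0.594 and 1.15 CPM in the Control libraries (log2 fold change 1.75 ± 0.34, SE, edgeR adjusted p = 0.00439). Parp14 had 67.2, 66.2, 80.8 and 79.1 CPM in the oxPAPC libraries, against 21.7, 20.4, 24.7 and 22.4 CPM in the Control libraries (log2 fold change 1.72 ± 0.14, SE, edgeR adjusted p = 5.78e-06). Both were apart in every library. Parp10 and Parp9 had log2 fold changes of 1.34 and 0.85. Parp9 and Dtx3l start 681 bases apart on opposite strands of chromosome 16 and share 458 exon bases, so without known strand their counts could mix. Dtx3l had 38.7, 38.9, 60.3 and 49.3 CPM in the oxPAPC libraries, against 26.2, 40.1, 38.3 and 38.2 CPM in the Control libraries, and missed the threshold (log2 fold change 0.39 ± 0.18, SE, edgeR adjusted p = 0.172). Control replicate 2 lay above 2 oxPAPC libraries.

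Of the 6 remaining members 5 rose. Lgals3bp, a secreted glycoprotein that binds galectin, had 43.7, 33.5, 59.4 and 44.6 CPM in the oxPAPC libraries, against 6.52, 6.72, 6.90 and 7.41 CPM in the Control libraries (log2 fold change 2.72 ± 0.18, SE, edgeR adjusted p = 1.94e-06). Xaf1, a pro-apoptotic factor that antagonizes XIAP, had 10.7, 13.4, 11.8 and 12.8 CPM in the oxPAPC libraries, against 0.333, 0.905, 1.37 and 0.690 CPM in the Control libraries (log2 fold change 3.83 ± 0.30, SE, edgeR adjusted p = 5.34e-06). The groups of both genes were far apart. Ifi27l2a, a small membrane protein, was the most abundant member, with 587, 528, 304 and 689 CPM in the oxPAPC libraries, against 178, 161, 196 and 154 CPM in the Control libraries. Replicate 3 was the lowest oxPAPC library and still above every Control library (log2 fold change 1.62 ± 0.23, SE, edgeR adjusted p = 0.000484). Its neighbour Ifi27 and Ifi35, a partner of the regulator NMI, had log2 fold changes of 0.94 and 0.75. Tor3a, an ATPase of the endoplasmic reticulum, had 18.1, 16.7, 15.8 and 15.5 CPM in the oxPAPC libraries, against 16.9, 18.6, 15.4 and 14.8 CPM in the Control libraries. It showed full overlap (log2 fold change 0.01 ± 0.14, SE, edgeR adjusted p = 0.976).

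**Figure D3:**
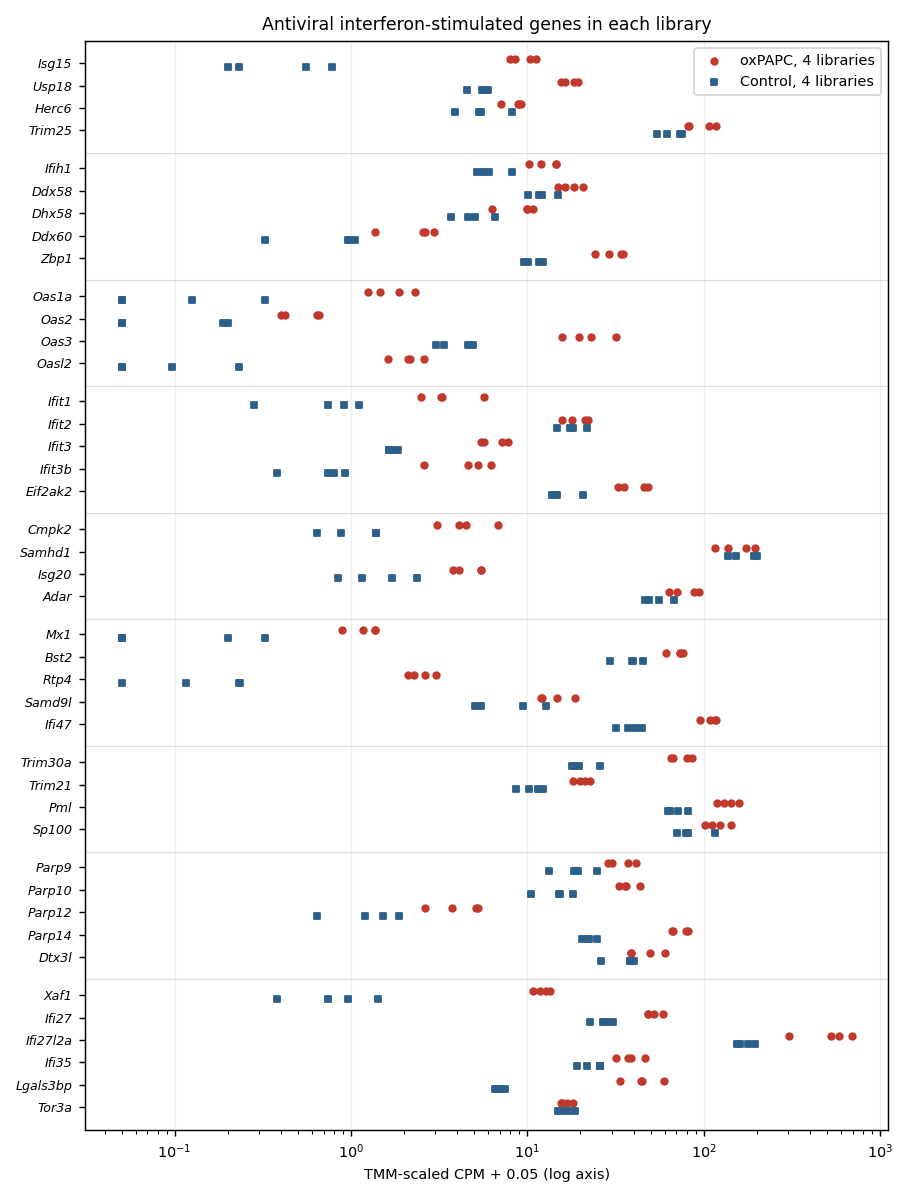
TMM-scaled CPM plus 0.05 on a log axis for the 42 members with a row, grouped by role, with oxPAPC libraries as red circles and Control libraries as blue squares, 4 each. Isg15, Oasl2, Rtp4 and Xaf1 show wide gaps, while Ifit2, Samhd1 and Tor3a overlap.

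**Figure D4:**
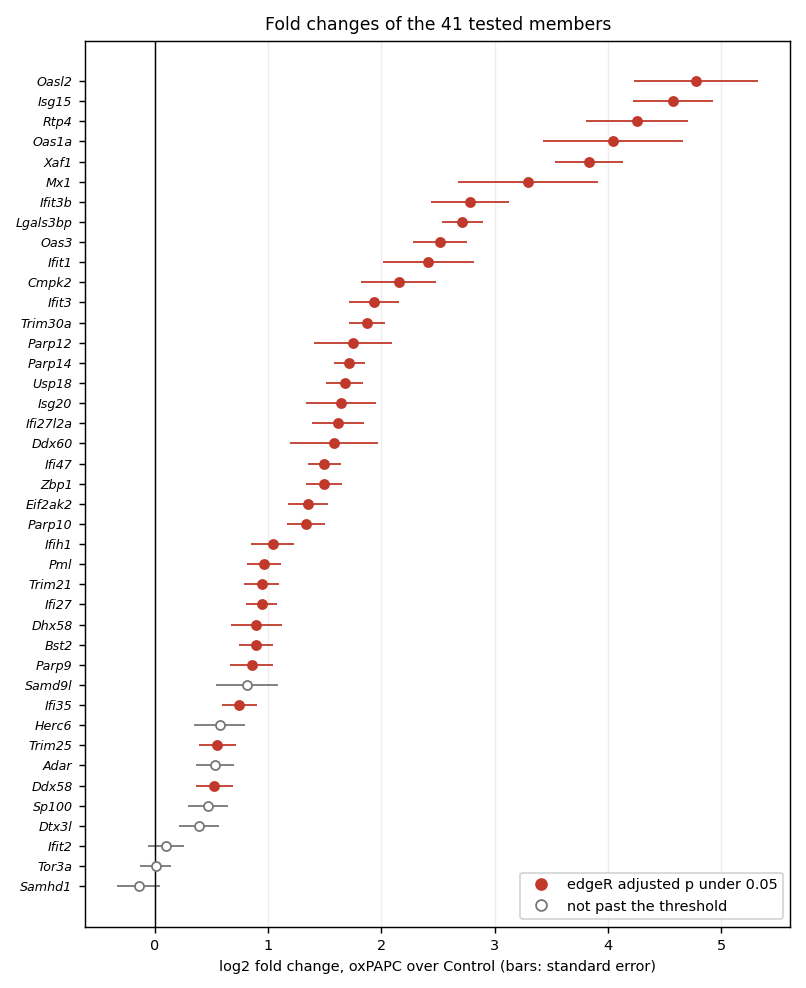
Log2 fold change, oxPAPC over Control, with standard errors for the 41 tested members, from the highest to the lowest. Filled red points are the 33 members past the adjusted p threshold of 0.05 and open points the 8 that did not pass.

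Per kilobase of exon, the members ranged widely in level. Ifi27l2a led in both groups, at 1138 CPM per kilobase in the oxPAPC libraries and 371 in the Control libraries, followed by Bst2 at 78.5 and 42.4. The median over the 41 members was 5.49 CPM per kilobase in the oxPAPC libraries and 2.39 in the Control libraries, against 3.55 and 3.55 over 16410 genes tested with a length. Under 1 CPM per kilobase were 5 members in the oxPAPC libraries and 16 in the Control libraries. Isg15 ranked 12th of the members in the oxPAPC libraries at 12.5 CPM per kilobase and 31st in the Control libraries at 0.520, with a length from an annotation whose gene span differs slightly from the table's. Samhd1 ranked 8th at 16.9 and 3rd at 18.7.

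The members' deviations from their group mean differed between libraries. The median deviation of the 41 members from their group mean, on log2(CPM + 0.5), was -0.15, -0.14, 0.15 and 0.12 in oxPAPC replicates 1 to 4, and -0.08, -0.05, 0.15 and 0.05 in Control replicates 1 to 4. Replicate 3 was the highest of its group for 21 of 41 members (51.2%) in the oxPAPC libraries and for 21 (51.2%) in the Control libraries, against 33.9% and 34.0% of all genes tested. Gm26917, a noncoding gene, took 19.4%, 16.6%, 9.51% and 9.35% of the counts in oxPAPC replicates 1 to 4, and 19.7%, 29.1%, 8.59% and 16.0% in Control replicates 1 to 4. The libraries below their group mean in the members were thus those with the larger share of Gm26917 in each group. With the Gm26917 share as a covariate, 31 members rose and 0 fell, and with Gm26917 and the gene Rn7sk left out, 33 rose and 0 fell. Beyond these fits, the part of Gm26917 in the result was not tested.

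**Figure D5:**
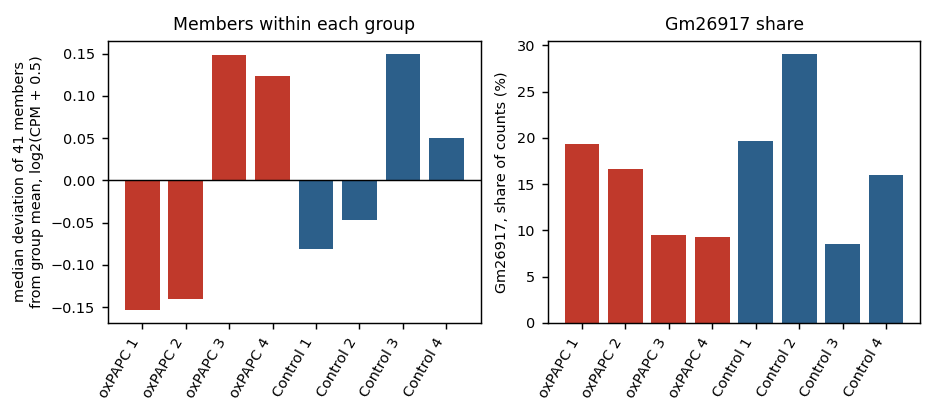
Left, median deviation of the 41 members from the mean of their own group on log2(CPM + 0.5) for each library. Right, share of all counts taken by Gm26917 in percent. Red bars are oxPAPC and blue bars Control libraries; replicate 3 has the highest deviation in each group, 0.15.

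Among genes of interferon signalling outside the members, the gene of interferon gamma and several transcription factors were higher, and some receptor genes lower. Ifng, which encodes interferon gamma, had 60.7, 55.1, 89.5 and 92.3 CPM in the oxPAPC libraries, against 3.99, 1.13, 2.83 and 4.05 CPM in the Control libraries. Among 12 listed ligand genes only Ifng and Ifnk had rows, and Ifnk had a log2 fold change of 0.23 (edgeR adjusted p = 0.783). Ifnb1, the listed interferon alpha and lambda genes and Ifne had no row and were not analysed here. Of 9 transcription factors of the pathway 5 rose and 1 fell. Irf7, the amplifier of type I interferon production, had the largest log2 fold change of them at 2.39, and Irf1, Irf9 and Stat2 had 0.96, 0.64 and 0.50. Irf2, which can repress interferon targets, fell by 0.53. Of 9 receptor and kinase genes 3 fell and 0 rose, namely the receptor chains Ifngr2, Ifnar2 and Ifngr1 at -0.67, -0.62 and -0.46. Ifnar1, the other type I receptor chain, had -0.27 (edgeR adjusted p = 0.231). Of 6 negative regulators only Socs1, an inhibitor of JAK kinases, rose, with 0.66, and 0 fell. The part of Ifng and of these signalling genes in the members' result was not tested.

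The T cell label was checked against Cd3e, Cd3g, Cd4, Trac, Foxp3, Il2ra, Ctla4 and Ikzf2, which summed to 1540 to 2484 CPM in the oxPAPC libraries and 1626 to 2114 CPM in the Control libraries, with 0 of 8 past the threshold. Markers of other cells that also express antiviral genes were measured beside the members. Of 8 B cell markers 4 rose and 0 fell, and they summed to 21.2 to 27.9 CPM in the oxPAPC libraries and 14.4 to 19.3 CPM in the Control libraries. Of 9 macrophage markers 4 were tested and 1, Mpeg1, rose, with sums of 9.09 to 11.3 and 3.77 to 4.80 CPM in the oxPAPC and Control libraries. Of 8 dendritic cell markers 4 were tested and 1, Flt3, rose, with sums of 25.5 to 30.2 and 17.7 to 26.9 CPM. Of 8 markers of plasmacytoid dendritic cells, specialists in type I interferon, 5 were tested, Bst2 rose and Pacsin1 fell, with sums of 391.9 to 597 and 295 to 422 CPM, and Siglech, Klk1 and Cox6a2 had no row. Bst2 is itself one of the members, so its rise is no separate measure of these cells. Irf8, which did not pass, made up most of these sums, with means of 357 and 249 CPM in the oxPAPC and Control libraries. Of 7 natural killer cell markers 2 were tested and Eomes rose, with sums of 10.2 to 19.9 and 4.72 to 7.02 CPM, and Ncr1, Klrb1c, Klra8 and Klre1 had no row. Of the CD8 markers Cd8a rose and Cd8b1 did not pass (log2 fold changes 1.66 and 0.09), with sums of 10.9 to 18.7 and 6.72 to 8.90 CPM. The dendritic cell marker Itgax was at 0 in Control replicate 2, and Fcgr1, Itgam, Cd14, Mertk, Clec9a and Cd209a had no row. The part of these cells in the members' result was not tested.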

How the data were processed

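Poly(A)-selected RNA of 8 samples was sequenced, per the labels' protocols. STAR 2.7.8a, featureCounts 2.0.2, DESeq2 1.30.1 and GRCm38.p6 are named in the submitters' processing notes. Neither the notes nor the labels say how strand was treated in counting. The authors deposited whole-number counts per gene, and their own DESeq2 output: mean signal, log2 fold changes with errors, Wald scores, p-values before and after adjustment, and fold ratios. All 19330 genes reach 5 counts in 2 or more libraries.

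Counts were TMM-scaled, filtered with filterByExpr and tested in edgeR 4.0.16 (quasi-likelihood, robust, R 4.3.3) over 16434 genes, with Benjamini-Hochberg adjustment and a threshold of 0.05. Standard errors are the log2 fold change over the square root of F. The common biological coefficient of variation was 0.207. Exon lengths are from GENCODE M21, and 99.1% of gene IDs had identical coordinates there. Promoter sequences are RefSeq's. Of 42 members, 27 share under 1% of their 50-base words with another gene.

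The members and lists were chosen with earlier results of these data known. Values in every library are given for the 2 called members with the largest change in each role group, those that did not pass and those whose call changed. Library values of Oas2, Oas3, Ifi27l2a and Ifng, and the pairs of neighbours, were chosen after values were seen. Alternatives were RLE and library size scaling, 2 other filters, DESeq2 1.42.0, limma-voom (limma 3.58.1) without and with quality weights, a replicate block, Gm26917 and Rn7sk left out, a covariate for the Gm26917 share, and each library left out. Some genes of the lists are not reported here. A fit without robust moderation was added after seeing the data.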

Additional observations from a re-analysis of the deposited data

Results flagged for a closer look

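A search of 246 sets of 4 CPM values, for members and list genes, found 11 in which 1 library stood apart, where chance gives about 12.3. Among the members, Herc6 was at 7.06 CPM in oxPAPC replicate 3, with the group's other libraries at 8.79 to 9.11. Ddx60 was at 0.276 CPM in Control replicate 4, with the group's other libraries at 0.905 to 1.01. Eif2ak2 was at 20.6 CPM in Control replicate 3, with the group's other libraries at 13.7 to 14.6, and Dtx3l was at 26.2 CPM in Control replicate 1, with the group's other libraries at 38.2 to 40.1. Among pathway genes, Ifnar1 was at 91.4 CPM in Control replicate 1, with the group's other libraries at 105 to 107. Aim2, a DNA sensor, was at 45.0 CPM in Control replicate 3, with the group's other libraries at 30.8 to 31.9. Pde12 was at 27.0 CPM in Control replicate 1, with the group's other libraries at 31.9 to 32.4. Among cell type genes, Ikzf2 was at 212 CPM in Control replicate 3, with the group's other libraries at 121 to 127. Ctla4 was at 149 CPM in oxPAPC replicate 4, with the group's other libraries at 112 to 116. Flt3 was at 1.39 CPM in oxPAPC replicate 2, with the group's other libraries at 0.913 to 0.971. Itgax was at 0.333 CPM in Control replicate 1, with the group's other libraries at 0 to 0.0460.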

How the results depend on the processing

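Of the 33 members that rose, 29 kept their direction and their side of the threshold in each of the 19 other settings that tested them; the exceptions were Ddx58, Trim25, Dhx58 and Ddx60. Members called ranged from 22 of 29 tested, with a filter at 5 CPM, to 36, with DESeq2 or with quality weights, and were 30 to 35 with one library left out; 0 fell in any setting. Trim25, Ddx58 and Ddx60 lost their calls with the replicate block (edgeR adjusted p of 0.0691, 0.0518 and 0.061), and Adar passed (0.0471), and Trim25 and Ddx58 with the Gm26917 covariate (0.0785 and 0.0812). Replicate numbers did not pair the libraries: deviations from the group mean correlated between oxPAPC and Control libraries of one number at 0.321, -0.0528, -0.368 and -0.0354, and for 2 of 8 libraries the best match was their own number. With the replicate block, 1366 of all genes passed (701 higher, 665 lower), against 2169 without it (1100 higher, 1069 lower). Library size scaling called 460 lower genes, so that 71.7% of calls were higher, against 50.7%, and the all-gene median of log2 fold changes was 0.12, against -0.01. The cause was not tested. Leaving out one library, which leaves fewer samples, called between 1383 and 2179 genes (higher, 701 to 1056; lower, 681 to 1173), the lowest totals being without Control replicate 2; without oxPAPC replicate 1 or 4, 704 and 681 genes were lower. Ifit2 turned to -0.031 with the covariate, and Tor3a lay between -0.038 and 0.072 as single libraries were left out. The ISRE core was in 30.3% of members' promoters when only the 250 bases before the start were searched. Oas1a, Oas2, Oasl2, Mx1 and Rtp4 rest on fewer than 10 counts over the Control libraries, which limits the precision of their fold changes.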
